A study of Mus musculus with 6 samples.

Results

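The Kruppel-like factors (Klf genes) are transcription factors, described here through 10 members, Klf2, Klf3, Klf4, Klf5, Klf6, Klf7, Klf10, Klf11, Klf13 and Klf15, among the 34665 genes of the count table. They were chosen by gene name, at a time when the difference between the 2 treatment groups was already known, so that their group values below are a description and not a test of the family. The samples were tumours of the mouse melanoma line B16, labelled wild type. In the ICI group (replicates 1, 2 and 3) the mice had received an immune checkpoint inhibitor, and in the RI group (replicates 1, 2 and 4) radiation in addition to it, so that every tumour had been exposed to an inhibitor and none was untreated. No source used here gives the age of the mice, the harvest time, which checkpoint was blocked, how much radiation was given or whether these tumours lay in its field.

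Kruppel-like factors share a block of zinc fingers at the C terminus, by which they bind CACCC boxes and other GC-rich sites, and differ in the N-terminal part that recruits partners. Klf2, Klf4, Klf5, Klf6 and Klf7 act largely as activators, Klf3 represses through the corepressor CtBP, and Klf10, Klf11 and Klf13 repress through Sin3. Klf2 and Klf4 are known for keeping endothelium quiescent, Klf2 also for holding T cells in a resting, recirculating state, and several members are induced quickly by growth factors, shear stress or glucocorticoids.

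Klf2 was the member that passed the test. It rose 3.64-fold in RI tumours, and the other 9 members were not called. The fitted level of Klf4 was 2.15-fold higher in RI, that of Klf6, Klf10 and Klf15 1.38-fold to 1.40-fold higher, and that of Klf13 1.46-fold lower. Of the 10 members, all of which passed the filter on low counts, 1 was called (an adjusted p under 0.05 in edgeR's quasi-likelihood test over all tested genes), where 9.18% of all 16924 tested genes were called (4.46% higher and 4.72% lower in RI). DESeq2 called 3 members (20.4% of tested genes) and limma-voom 1 (7.84%). The libraries of the 2 groups did not overlap for 6 members (4 with RI above and 2 with RI below), against 37.2% of all tested genes (17.8% with RI above and 19.4% with RI below). The median log2 fold change of the members was 0.40 (0.01 over all tested genes), and 6 members had an unadjusted p under 0.05 (31.5% of tested genes). Levels are given in CPM, the count of a gene relative to the TMM-scaled size of its library. Because the members were chosen with this contrast known, nothing is read from these shares. In these bulk samples, more cells that express a gene and more transcript per cell cannot be told apart.

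**Figure D1:**
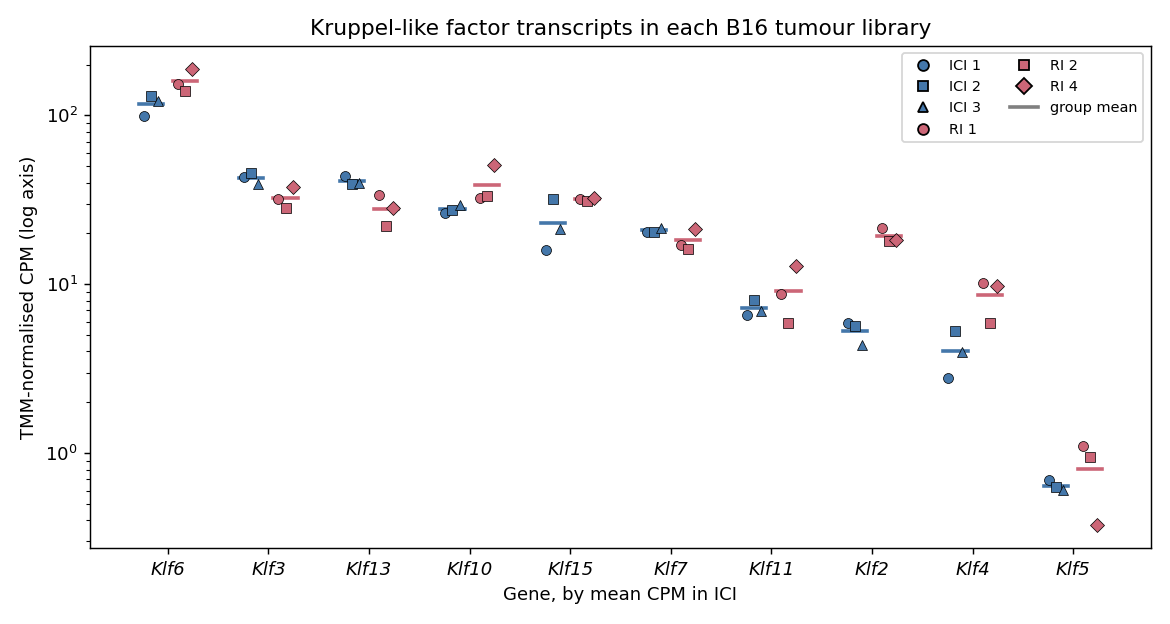
Level of each Klf gene in each library, in TMM-scaled CPM (log axis), with genes ordered by their mean in ICI; blue symbols are ICI libraries, red symbols RI libraries and lines group means. The RI libraries of Klf2 lie between 18.0 and 21.6 CPM, above all ICI libraries, while the groups of Klf5, Klf7, Klf11 and Klf15 overlap.

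The libraries held 22543721 to 45624013 counts. RI replicate 1 stood apart from the others, with counts on 29748 rows against 22763 to 24891. Whether each library came from its own animal is not stated in the labels, so a p-value here reflects library-to-library spread only. The number of calls over all genes depended on single libraries. It was 1553 with all 6, 0 without ICI replicate 1 or without RI replicate 2 (3701 and 4107 genes with an edgeR unadjusted p below 0.05, while DESeq2 and limma-voom were run on all 6 libraries only), 2 without ICI replicate 3, 97 without RI replicate 4, 525 without ICI replicate 2 and 3109 without RI replicate 1. The melanocyte lineage genes that mark B16 cells (Mlana, Pmel, Tyr, Tyrp1, Dct, Mitf and Sox10) summed to 10072 to 15180 CPM in every library, and 1 of the 7, Mlana, was called (higher in RI).

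Among the activators, Klf2 (ENSMUSG00000055148) lies on chromosome 8 at 72319033 to 72321656 on GRCm38. It stood at 5.87, 5.64 and 4.39 CPM in ICI replicates 1, 2 and 3 and at 21.6, 18.0 and 18.3 CPM in RI replicates 1, 2 and 4. The RI libraries were alike and all lay far above the ICI libraries. The group means were 5.30 ± 0.794 and 19.3 ± 2.01 CPM (SD, n = 3 each), a log2 fold change of 1.86 (SE 0.19, adjusted p = 0.0189, edgeR). The spread within the groups, 15.0% and 10.4% of the mean, was small beside the difference. The size of the change was larger than that of 96.9% of tested genes, and Klf2 ranked 6 of 16924 by p. The log2 fold change stayed between 1.73 and 1.93 when any 1 library was left out, but Klf2 was no longer called when ICI replicate 1 (adjusted p = 0.137), ICI replicate 3 (adjusted p = 0.0885) or RI replicate 2 (adjusted p = 0.0571) was removed, in fits where few or no genes were called. Without RI replicate 1 it was 1.78 (adjusted p = 0.0111). The Klf2 transcript is short and rich in GC, at 1847 bases and 61.6% GC, the extreme of both among the 10 members. With a correction for length and GC content in each library the log2 fold change was 1.49 (adjusted p = 0.0197), and over all alternatives the adjusted p ran from 8.17e-16 (DESeq2) to 0.137.

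The sequence before the Klf2 start is shown because MEF2 factors, which bind AT-rich sites of the kind CTANNNNTAG and act below the kinase Mapk7 (ERK5), are known drivers of Klf2. It is set beside those of Klf4, the member with the next highest fold change, and Klf13, the member with the lowest. The sequences are from RefSeq on GRCm38.p6 and are written 5′ to 3′ on the strand of the gene. They end before the first annotated transcript start, with positions counted back from the RefSeq start, and capitals mark GGGCGG on either strand (the GC box that Sp and Klf proteins bind) and CTANNNNTAG.
Klf2 (chr8:72318812-72319032, plus strand): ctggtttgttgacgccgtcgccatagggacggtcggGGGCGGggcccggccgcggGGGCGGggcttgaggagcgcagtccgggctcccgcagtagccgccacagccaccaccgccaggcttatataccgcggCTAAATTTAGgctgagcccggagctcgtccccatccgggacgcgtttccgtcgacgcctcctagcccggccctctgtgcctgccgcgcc
Klf4 (chr4:55532476-55532725, minus strand): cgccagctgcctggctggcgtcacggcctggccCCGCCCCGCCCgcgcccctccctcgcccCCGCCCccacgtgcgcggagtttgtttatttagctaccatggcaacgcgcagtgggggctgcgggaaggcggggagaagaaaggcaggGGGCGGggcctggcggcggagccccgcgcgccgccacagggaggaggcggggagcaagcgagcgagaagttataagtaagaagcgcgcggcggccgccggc
Klf13 (chr7:63938916-63939165, minus strand): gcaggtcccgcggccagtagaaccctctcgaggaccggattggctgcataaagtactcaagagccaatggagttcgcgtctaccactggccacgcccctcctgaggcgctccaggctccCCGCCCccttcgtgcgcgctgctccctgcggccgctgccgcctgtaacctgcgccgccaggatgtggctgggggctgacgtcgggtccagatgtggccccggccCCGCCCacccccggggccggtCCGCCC

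Promoters of 8 members were matched in that table by symbol, and those of Klf5 and Klf10 were not. Over the 300 bases from 250 before to 50 after the RefSeq start, all 8 held GGGCGG on 1 strand or the other, against 35.7% of the 32851 promoters of the same length. Their GC content ran from 58.3% (Klf7) to 77.7% (Klf11), where the median promoter had 52.7%, and a GC-rich motif is met more often in such sequence. The motif CTANNNNTAG, which reads the same on both strands, was found in 1 of the 8, at -118 in Klf2 with the letters CTAAATTTAG, and in 3.69% of all promoters. CACCC on either strand, the letters of the Klf box itself, was found in 5 of 8 (Klf2, Klf3, Klf7, Klf13 and Klf15) and in 57.5% of all promoters. The E-box CACGTG was found in 4 of 8 (Klf4, Klf6, Klf11 and Klf15) and in 7.15% of all, and the cyclic AMP response element TGACGTCA in 0 of 8 and in 1.79%. In Klf4, 2 of the GGGCGG matches overlap each other. These are matches of letters in 1 window and do not show binding.

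Klf2 is strongly expressed in endothelium and resting T cells, so markers of both were set beside it. The summed level of 8 endothelial genes (Pecam1, Cdh5, Kdr, Tie1, Emcn, Egfl7, Esam and Cldn5) was 104 to 221 CPM in ICI and 87.9 to 299 CPM in RI. None of the 8 was called (0 with an edgeR unadjusted p below 0.05, 0 with limma-voom and 0 with DESeq2), and none was at 0 in any library. Per 100 CPM of these markers, Klf2 stood at 2.71, 5.44 and 1.99 CPM in ICI replicates 1, 2 and 3 and at 7.22, 14.9 and 20.8 CPM in RI replicates 1, 2 and 4. The groups did not overlap on this scale. RI replicate 1 had the most endothelial transcript of the 6 libraries and RI replicate 4 the least. The part of endothelial cells in the Klf2 values was not tested. The summed level of 7 T cell genes (Cd3e, Cd3d, Cd3g, Cd2, Lck, Cd8a and Cd4) was 4.75 to 49.997 CPM in ICI and 1.63 to 15.2 CPM in RI, with 0 of 7 called (0 with an edgeR unadjusted p below 0.05, 0 with limma-voom and 0 with DESeq2). With the replicate block edgeR called 4 of the 7 lower (Cd3e, Cd3g, Cd8a and Lck). In that fit 245 of 16924 tested genes were called lower, and the group difference came from replicates 1 and 2 alone. ICI replicate 3, whose T cell sum (4.75 CPM) lay below that of RI replicate 1 (15.2 CPM), added nothing to it. Cd2 was at 0 in RI replicate 4, and the other 6 were detected in every library. The library with the most T cell transcript, ICI replicate 1, had 5.87 CPM of Klf2, and the library with the least, RI replicate 4, had 18.3 CPM. In ICI replicate 3 the T cell sum was 4.75 CPM and Klf2 4.39 CPM, and in RI replicate 1 they were 15.2 and 21.6 CPM. The part of T cells in the Klf2 values was not tested.

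**Figure D2:**
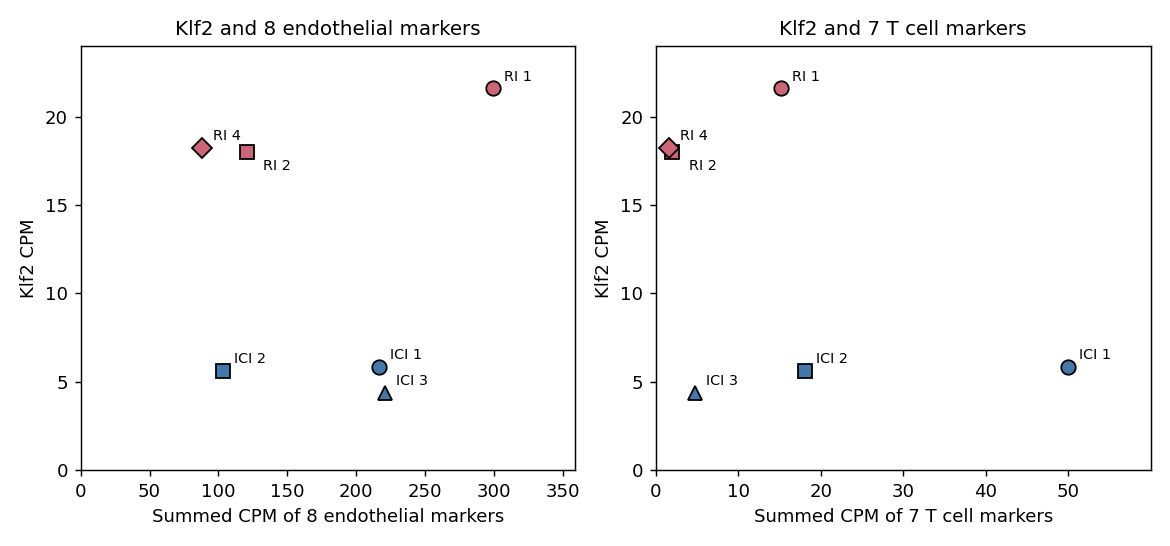
Klf2 (CPM, vertical axes) against the summed CPM of 8 endothelial markers (left) and of 7 T cell markers (right), with 1 symbol per library (blue ICI, red RI). The RI libraries lie at 18.0 CPM of Klf2 or more over an endothelial range of 87.9 to 299 CPM, and the ICI libraries at 5.87 CPM or less over 104 to 221 CPM.

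Klf4, one of the reprogramming factors and a relative of Klf2 in endothelium and in differentiating epithelium and monocytes, lies on chromosome 4 at 55527143 to 55532466. It stood at 2.79, 5.26 and 3.99 CPM in ICI replicates 1, 2 and 3 and at 10.2, 5.90 and 9.80 CPM in RI replicates 1, 2 and 4. The groups did not overlap, but RI replicate 2 lay close to the highest ICI library. The log2 fold change was 1.10 (SE 0.32), and edgeR did not call it (adjusted p = 0.0646), whereas DESeq2 did (adjusted p = 0.0102). Over all alternatives the adjusted p ran from 0.0102 to 0.286. Klf2 thus exceeded Klf4 in every library per length of transcript, by 1.76 to 3.45 times in ICI and 3.05 to 5.001 times in RI.

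Klf5, an activator of proliferating epithelium that is also needed early in fat cell formation, was near the limit of detection. It held 24, 25 and 29 counts in ICI and 31, 42 and 8 counts in RI, which is 0.69, 0.63 and 0.61 CPM against 1.10, 0.95 and 0.37 CPM. The RI libraries lay on both sides of the ICI libraries. Its log2 fold change of 0.35 (SE 0.45, adjusted p = 0.621, edgeR) was 0.09 without RI replicate 1 and 0.67 without RI replicate 4. Of 5 keratinocyte genes with a row, Krt5, Krt14 and Krt10 averaged at most 0.0666 CPM in either group, and the 5 summed to 2.15 to 3.17 CPM in ICI and 4.39 to 5.21 CPM in RI. Most of the sum was Sbsn (2.26 ± 0.396 and 3.74 ± 0.463 CPM) and Perp (0.216 ± 0.168 and 0.983 ± 0.349 CPM). For both, all RI libraries lay above all ICI libraries. EdgeR called neither (adjusted p = 0.116 and 0.0783), and DESeq2 called Perp. The part of such cells in the Klf5 values was not tested.

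Klf6, an early-response factor of wound repair, macrophages and stellate cells, had the highest level of the family in all 6 libraries. It stood at 99.1, 130 and 121 CPM in ICI and at 153, 140 and 189 CPM in RI, with no overlap. The log2 fold change was 0.46 (SE 0.16, adjusted p = 0.102, edgeR), between 0.33 without RI replicate 4 and 0.56 without RI replicate 2. The 7 macrophage genes (Adgre1, Csf1r, Cd68, Lyz2, C1qa, C1qb and Mrc1) summed to 154 to 200.4 CPM in ICI and 163 to 330.1 CPM in RI, with 0 called (2 with an edgeR unadjusted p below 0.05, 0 with limma-voom and 1 with DESeq2). Klf6 was highest in RI replicate 4, which had the lowest macrophage sum of the RI libraries (163 CPM). The part of macrophages in the Klf6 values was not tested. Klf7, a factor best known from sensory neurons, stood at 20.5, 20.5 and 21.5 CPM in ICI and at 17.1, 16.3 and 21.2 CPM in RI, and the groups overlapped (log2 fold change -0.20, SE 0.15, adjusted p = 0.404, edgeR). The gene Gm26649 on the opposite strand covers 39.3% of the Klf7 exons. The strand setting of the counts is not given, so reads of this pair cannot be told apart, and Gm26649 has no row in the count table.

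The CtBP-dependent repressor Klf3, a gene that is itself switched on by Klf1 in red cell precursors, was lower in each RI library than in any ICI library. Its values were 43.1, 45.3 and 39.0 CPM in ICI and 31.8, 28.3 and 37.7 CPM in RI. RI replicate 4 came close to ICI replicate 3, and the log2 fold change of -0.38 (SE 0.15) was not called (adjusted p = 0.120, edgeR, and 0.0988 to 0.403 over the alternatives). Red cell transcripts (Hbb-bs, Hba-a1, Alas2 and Slc4a1) summed to 2720 CPM in ICI replicate 3, which had the lowest Klf3 of the ICI libraries, and to 64.8 to 377 CPM in the other 5. The part of red cells in the Klf3 values was not tested.

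Of the Sin3-dependent repressors, Klf13, known from T cells as an activator of late Ccl5 expression, had the lower level in RI, and Klf10 the higher. Klf13 stood at 43.6, 39.2 and 39.5 CPM in ICI and at 33.7, 21.996 and 28.3 CPM in RI. All RI libraries lay below all ICI libraries, by a log2 fold change of -0.54 (SE 0.17, adjusted p = 0.0793, edgeR). DESeq2 called Klf13 lower (adjusted p = 0.0441). Without RI replicate 1 the log2 fold change was -0.70 and edgeR called it as well (adjusted p = 0.0250). Across the alternatives the adjusted p of Klf13 ran from 0.0242 to 0.229. Klf10 (TIEG1) and Klf11 (TIEG2) are early response genes of TGF-beta. Klf10 stood at 26.4, 27.5 and 29.5 CPM in ICI and at 32.6, 33.1 and 50.8 CPM in RI. RI replicate 4 was the high library, and the log2 fold change of 0.48 (SE 0.19, adjusted p = 0.130, edgeR) was 0.24 without it. Klf11 stood at 6.61, 8.05 and 6.94 CPM in ICI and at 8.76, 5.86 and 12.7 CPM in RI, an overlap in which RI held both the highest and the lowest library. Its log2 fold change of 0.34 (SE 0.29, adjusted p = 0.451, edgeR) was 0.02 without RI replicate 4.

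Klf15, a glucocorticoid-induced regulator of amino acid and lipid use in muscle, liver and fat, spanned a wider range among the ICI tumours than the difference between the group means. It stood at 15.9, 32.0 and 21.4 CPM in ICI and at 31.9, 31.3 and 32.3 CPM in RI. The RI libraries were almost equal, and ICI replicate 2 matched them. The log2 fold change of 0.46 (SE 0.24, adjusted p = 0.219, edgeR) was 0.24 without ICI replicate 1 and 0.76 without ICI replicate 2. Muscle and fat, where Klf15 is high, were present to differing extents. The 5 skeletal muscle genes (Ckm, Acta1, Myh4, Mylpf and Tnnt3) summed to 2.45 to 190 CPM in ICI and 16.1 to 2082 CPM in RI. The 6 fat cell genes (Adipoq, Plin1, Cfd, Cidec, Lep and Fabp4) summed to 39.0 to 77.005 CPM and 121 to 230 CPM. Most of the fat cell sum was Fabp4 in every library. It gave 50.5 of 50.6 CPM in ICI replicate 1 and 183 of 230 CPM in RI replicate 1. Klf15 was at 32.3 CPM in RI replicate 4, the RI library with the least muscle transcript (16.1 CPM), and at 31.9 CPM in RI replicate 1, the one with the most (2082 CPM). Plin1, Cidec and Lep were at 0 in ICI replicates 1 and 2, which had 15.9 and 32.0 CPM of Klf15. Fabp4, also an endothelial and macrophage gene, was the 1 fat cell gene called in edgeR without a block (48.4 ± 8.52 and 133 ± 46.7 CPM, adjusted p = 0.0292, edgeR). Limma-voom also called Cidec, and the replicate block called all 5 tested fat cell genes higher. In the block fit 400 of 16924 tested genes were called higher, and the group difference came from replicates 1 and 2 alone. ICI replicate 3 therefore added nothing to it. That library held 2.20 CPM of Adipoq and 1.32 CPM of Plin1, above every RI library, but lay below every RI library for Cfd, Cidec and Fabp4. The parts of muscle and of fat cells in the Klf15 values were not tested.

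**Figure D3:**
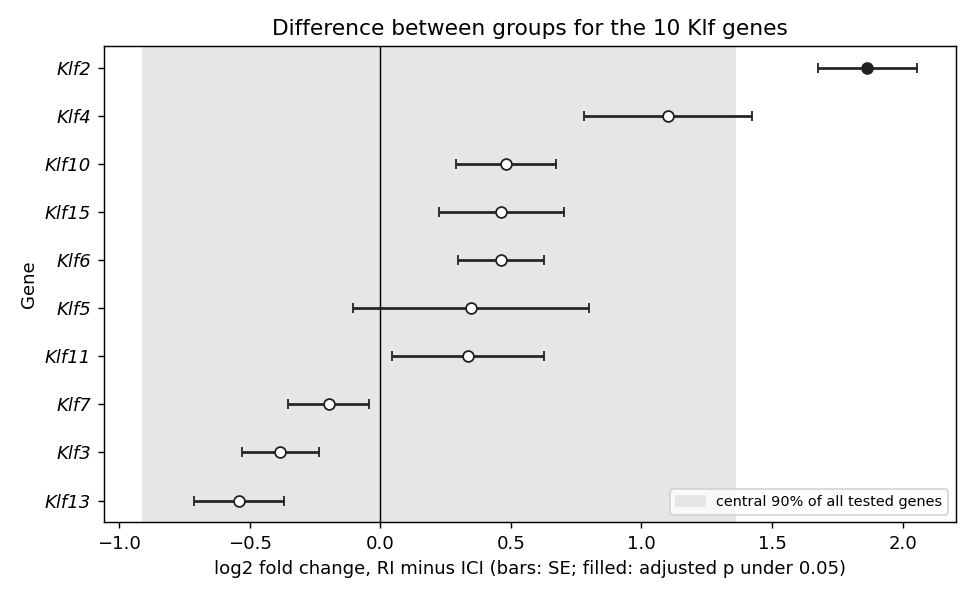
Log2 fold change (RI minus ICI) of the 10 Klf genes with its SE; the filled point passed an adjusted p of 0.05 and the grey band holds the central 90% of all tested genes, from -0.91 to 1.36. Klf2, at 1.86, lies above the band, and the other 9 lie inside it.

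The order of the family by level per length (CPM per kb of the longest transcript) differed between the groups through Klf2 and Klf4, each of which stood 2 places higher in RI. In ICI the order was Klf6 (27.6 ± 3.75 CPM per kb), Klf15 (9.30 ± 3.31), Klf10 (9.13 ± 0.527), Klf3 (8.13 ± 0.611), Klf13 (6.37 ± 0.380), Klf2 (2.87 ± 0.430), Klf7 (2.72 ± 0.0761), Klf11 (1.76 ± 0.185), Klf4 (1.33 ± 0.408) and Klf5 (0.191 ± 0.0129; SD, n = 3). The library ranges of neighbours overlapped between Klf15 and Klf10, Klf10 and Klf3, Klf2 and Klf7, and Klf11 and Klf4. In RI, Klf2 (10.4 ± 1.09 CPM per kb) came after Klf6 (38.0 ± 5.97), Klf15 (12.8 ± 0.210) and Klf10 (12.8 ± 3.41), and its range overlapped that of Klf10. Then followed Klf3 (6.24 ± 0.904), Klf13 (4.38 ± 0.918), Klf4 (2.85 ± 0.785), Klf7 (2.38 ± 0.343), Klf11 (2.23 ± 0.846) and Klf5 (0.241 ± 0.114), where the ranges of Klf4 and Klf7 and those of Klf7 and Klf11 overlapped. As a share of the summed level per length of the 10 members, Klf2 went from 4.17% ± 0.851 to 11.4% ± 1.81, Klf3 from 11.8% ± 1.31 to 6.75% ± 0.0970 and Klf13 from 9.29% ± 1.53 to 4.75% ± 0.904. Klf6 made up 39.7% ± 1.91 of it in ICI and 41.1% ± 1.3 in RI. The mean share of Klf6 differed between the groups by less than its SD in ICI and by slightly more than its SD in RI.

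**Figure D4:**
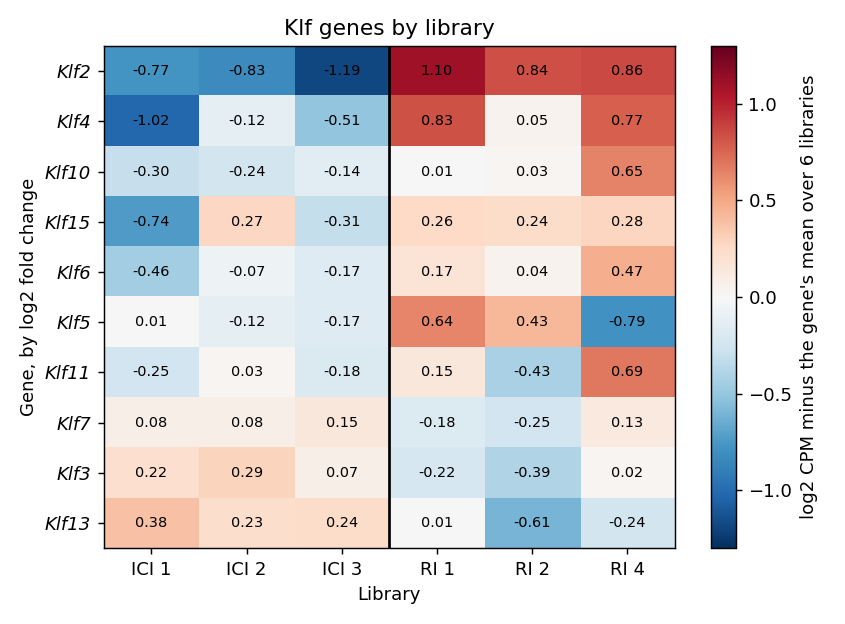
Log2 CPM of each Klf gene in each library minus the mean of that gene over the 6 libraries (red above, blue below), with genes ordered by log2 fold change. Klf2 is the row in which all RI libraries exceed their mean by over 0.8, and RI replicate 4 is the high RI library for Klf3, Klf6, Klf7, Klf10 and Klf11.

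The libraries within RI were not alike across the family. RI replicate 4 had the highest RI value of Klf3, Klf6, Klf7, Klf10, Klf11 and Klf15 and the lowest of Klf5. RI replicate 1 had the highest of Klf2, Klf4, Klf5 and Klf13. RI replicate 2 had the lowest of Klf2, Klf3, Klf4, Klf6, Klf7, Klf11, Klf13 and Klf15. Log2 CPM in RI replicate 4 minus the gene's mean was 0.65 for Klf10 and 0.69 for Klf11, against 0.01 and 0.15 in RI replicate 1 and 0.03 and -0.43 in RI replicate 2. The summed level of the 10 members was 62.2 to 77.1 CPM per kb in ICI and 81.0 to 105 CPM per kb in RI.

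Of the other Klf genes, Klf1, Klf8, Klf9, Klf12 and Klf16 were tested and Klf14 (0 to 5 counts) was not. None of the 5 was called in edgeR (1 with an unadjusted p below 0.05, 0 with limma-voom and 0 with DESeq2). Klf16 averaged 29.0 ± 0.715 CPM in ICI and 24.3 ± 2.04 CPM in RI (adjusted p = 0.216, edgeR), and the glucocorticoid-induced Klf9 13.0 ± 3.32 and 16.6 ± 5.18 CPM (adjusted p = 0.395, edgeR). Of the Sp genes, whose products bind the same GC boxes, 4 were tested and 2 fell, where 4.72% of all tested genes were called lower. Sp1 went from 74.6 ± 8.49 to 46.1 ± 9.83 CPM (log2 fold change -0.69, SE 0.18, adjusted p = 0.0483, edgeR), and Sp3 from 69.2 ± 2.46 to 49.1 ± 3.03 CPM (log2 fold change -0.50, SE 0.11, adjusted p = 0.0391, edgeR). Both calls were sensitive: Sp1 was called in 4 of 17 alternatives and Sp3 in 8, and with the length and GC correction their log2 fold changes were -0.45 (adjusted p = 0.136) and -0.33 (adjusted p = 0.129).

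The genes around the Klf factors were described by lists written from their known roles. Over all tested genes 9.18% were called (4.46% higher and 4.72% lower in RI), and nothing is read from list counts near these shares. Of 10 upstream kinases and factors, 1 fell, 0 rose and 9 did not pass, with a median log2 fold change of -0.22. Map3k2, a kinase at the head of the Mapk7 cascade, fell from 27.5 ± 2.40 to 16.2 ± 0.862 CPM (log2 fold change -0.76, adjusted p = 0.0297, edgeR, and 0.0632 with the length and GC correction). Mapk7 itself averaged 33.5 ± 3.22 and 41.8 ± 10.04 CPM, and Mef2c 48.0 ± 1.55 and 51.1 ± 5.85 CPM, neither called (adjusted p = 0.285 and 0.641, edgeR). Mef2a averaged 48.3 ± 3.88 and 40.0 ± 1.05 CPM, and Map3k3 38.3 ± 3.48 and 28.9 ± 3.39 CPM. For both, all RI libraries lay below all ICI libraries, and neither was called (adjusted p = 0.164 and 0.103, edgeR). Mef2d averaged 72.5 ± 9.92 and 72.6 ± 7.59 CPM. No gene of this upstream list was called higher. Of 4 ubiquitin ligases that act on Klf proteins (Wwp1, Fbxw7, Smurf1 and Siah1a) 0 were called in edgeR (1 with an unadjusted p below 0.05, 0 with limma-voom and 0 with DESeq2), and Smurf1 averaged 55.8 ± 2.33 and 58.2 ± 3.84 CPM. Among 11 corepressors and coactivators 1 fell, the acetyltransferase Kat2b, from 68.8 ± 11.8 to 42.7 ± 4.33 CPM (adjusted p = 0.0394, edgeR, and 0.0686 with the length and GC correction), and 10 did not pass. Sin3a (50.9 ± 3.31 and 38.5 ± 1.26 CPM, adjusted p = 0.0621, edgeR) and Ctbp1 (229 ± 6.35 and 191 ± 13.5 CPM, adjusted p = 0.186, edgeR) were among these.

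Known endothelial targets of Klf2 and Klf4 gave mixed values. Of 6 tested genes that the factors induce, 1 rose, 0 fell and 5 did not pass (median log2 fold change 0.55). Over all tested genes 4.46% were called higher and 4.72% lower in RI. Ptgds, a prostaglandin D synthase that melanocytic cells may also express, rose from 712 ± 66.8 to 1262 ± 194 CPM (log2 fold change 0.83, adjusted p = 0.0339, edgeR, and 0.0695 with the length and GC correction). Nos3, the endothelial nitric oxide synthase, chosen after its values were seen, stood at 5.49, 2.89 and 5.46 CPM in ICI and at 8.05, 7.69 and 5.69 CPM in RI and was not called (adjusted p = 0.196, edgeR). Thbd, Tek, Aqp1 and Plat overlapped between the groups. Of genes that the factors repress, Edn1, the endothelin precursor, averaged 2.59 ± 1.09 and 3.40 ± 2.77 CPM (adjusted p = 0.676, edgeR), and the adhesion molecule Vcam1 6.02 ± 1.56 and 7.12 ± 5.69 CPM (adjusted p = 0.776, edgeR), and the groups overlapped for both.

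Lymphocyte genes regulated by Klf2 are given singly. S1pr1, the receptor by which T cells leave tissue, also present in endothelium, averaged 13.9 ± 6.33 and 12.6 ± 11.7 CPM (adjusted p = 0.918, edgeR). Ccr7, the homing receptor of resting T cells and migrating dendritic cells, chosen after its values were seen, stood at 1.58, 0.755 and 0.753 CPM in ICI and at 0.248, 0.0225 and 0.233 CPM in RI (log2 fold change -2.71, adjusted p = 0.0568, edgeR). All 7 T cell markers likewise had lower fitted levels in RI (median log2 fold change -1.86). Of these, 0 of 7 were called in edgeR without a block, and 4 of 7 (Cd3e, Cd3g, Cd8a and Lck) with the replicate block. The block fit rests on replicates 1 and 2 alone and called 245 of 16924 tested genes lower. The part of T cells in the Ccr7 values was not tested.

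TGF-beta signalling genes, which lie upstream of Klf10 and Klf11, included 2 that fell, 0 that rose and 8 that did not pass. Their median log2 fold change was -0.57, where 9.18% of all tested genes were called (4.72% lower in RI). Smad4, the common Smad, fell from 74.4 ± 0.884 to 49.0 ± 7.12 CPM (adjusted p = 0.0390, edgeR), and the receptor Tgfbr1 from 37.4 ± 1.83 to 24.7 ± 3.15 CPM (adjusted p = 0.0428, edgeR, and 0.153 with the length and GC correction). The ligand Tgfb1 averaged 24.5 ± 3.71 and 24.4 ± 8.21 CPM. The other ligands had lower means in RI, and edgeR called neither. Tgfb2 averaged 3.66 ± 0.918 and 2.18 ± 0.601 CPM (adjusted p = 0.169, edgeR). Tgfb3 averaged 16.2 ± 3.68 and 9.34 ± 0.611 CPM (adjusted p = 0.0506, edgeR), and DESeq2 called it lower. Among 4 tested metabolic targets of Klf15, 0 were called in edgeR (2 with an unadjusted p below 0.05, 0 with limma-voom and 1 with DESeq2), and Prodh, which breaks down proline, averaged 50.6 ± 8.35 and 60.4 ± 7.52 CPM. Slc2a4, the insulin-responsive glucose transporter of muscle and fat, chosen after its values were seen, stood at 0.604, 1.81 and 1.13 CPM in ICI and at 16.8, 9.22 and 2.29 CPM in RI (adjusted p = 0.0519, edgeR). The muscle genes summed to 190, 144 and 2.45 CPM in ICI replicates 1, 2 and 3 and to 2082, 897 and 16.1 CPM in RI replicates 1, 2 and 4. Their order matched that of Slc2a4 in RI but not in ICI, and the part of muscle in the Slc2a4 values was not tested. Of 5 adipogenic factors 0 were called in edgeR (1 with an unadjusted p below 0.05, 0 with limma-voom and 1 with DESeq2), and Cebpb averaged 43.9 ± 27.6 and 56.6 ± 20.7 CPM.

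Glucocorticoids and growth factor signals are known to induce Klf genes, and genes that respond to either were described as well. Of 6 glucocorticoid response genes 3 rose, 1 fell and 2 did not pass, with a median log2 fold change of 1.303, where 9.18% of all tested genes were called. Per1, a clock gene with glucocorticoid response elements, rose from 33.0 ± 7.60 to 98.1 ± 7.30 CPM (log2 fold change 1.57, SE 0.18, adjusted p = 0.0189, edgeR). Zbtb16 rose from 0.407 ± 0.217 to 2.41 ± 1.55 CPM (adjusted p = 0.0416, edgeR) and Tsc22d3 (GILZ) from 18.1 ± 3.81 to 37.0 ± 13.0 CPM (adjusted p = 0.0490, edgeR). The receptor gene itself, Nr3c1, fell from 39.1 ± 3.11 to 24.3 ± 2.66 CPM (adjusted p = 0.0346, edgeR). With the length and GC correction Zbtb16, Tsc22d3 and Nr3c1 were at adjusted p = 0.0522, 0.0594 and 0.0937, and the log2 fold change of Zbtb16 (2.55) was 1.91 without RI replicate 1. The members known as glucocorticoid targets, Klf9 in the wider family and Klf15, were not called. Of 10 immediate early genes 7 rose, 0 fell and 3 did not pass, where 4.46% of all tested genes were called higher. The median log2 fold change of the 10 was 1.28. With the length and GC correction 2 of the 10 were called (Fosb and Zfp36) and 1 of the 6 glucocorticoid response genes (Per1). That fit called 619 of 16852 tested genes. Without ICI replicate 1, ICI replicate 3 or RI replicate 2, no gene of either list was called, in edgeR fits that called 0 to 2 genes in all. Without RI replicate 4 or ICI replicate 2 the immediate early count was 0 and 1, and the glucocorticoid count 1 in both. These fits called 97 and 525 genes in all. The immediate early count was 4 with no low-count filter and 3 with the replicate block, and the glucocorticoid count was 2 with limma-voom. In all, these 3 fits called 2628 of 34665, 645 of 16924 and 1326 of 16924 tested genes. The immediate early list overlaps one already known to be higher in these samples and is no separate evidence. Its 10 genes summed to 244 to 312 CPM in ICI and to 921, 469 and 534 CPM in RI replicates 1, 2 and 4. Klf2 stood at 21.6, 18.0 and 18.3 CPM in the same libraries.

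The genes whose profile over the 6 libraries was most like that of Klf2, by Pearson correlation of log2 CPM among the 14061 genes that averaged 1 CPM or more, were Zdhhc4, Eva1b, Slc19a2, Prdx2 and Slc26a8. Their coefficients lay between 0.992 and 0.996. Since the 6 points fall into 2 groups of 3, such values mainly pick genes that separate the groups and are a description of these libraries. The palmitoyltransferase gene Zdhhc4 averaged 33.8 ± 1.62 CPM in ICI and 47.6 ± 2.55 CPM in RI. Eva1b went from 15.6 ± 0.673 to 36.1 ± 3.70 CPM and Slc26a8, an anion transporter gene, from 0.560 ± 0.0875 to 3.14 ± 0.520 CPM. The thiamine transporter gene Slc19a2 (18.3 ± 0.431 and 21.9 ± 0.593 CPM) and the peroxiredoxin gene Prdx2 (193 ± 7.90 and 257 ± 12.3 CPM) were not called (adjusted p = 0.211 and 0.0641, edgeR).

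**Figure D5:**
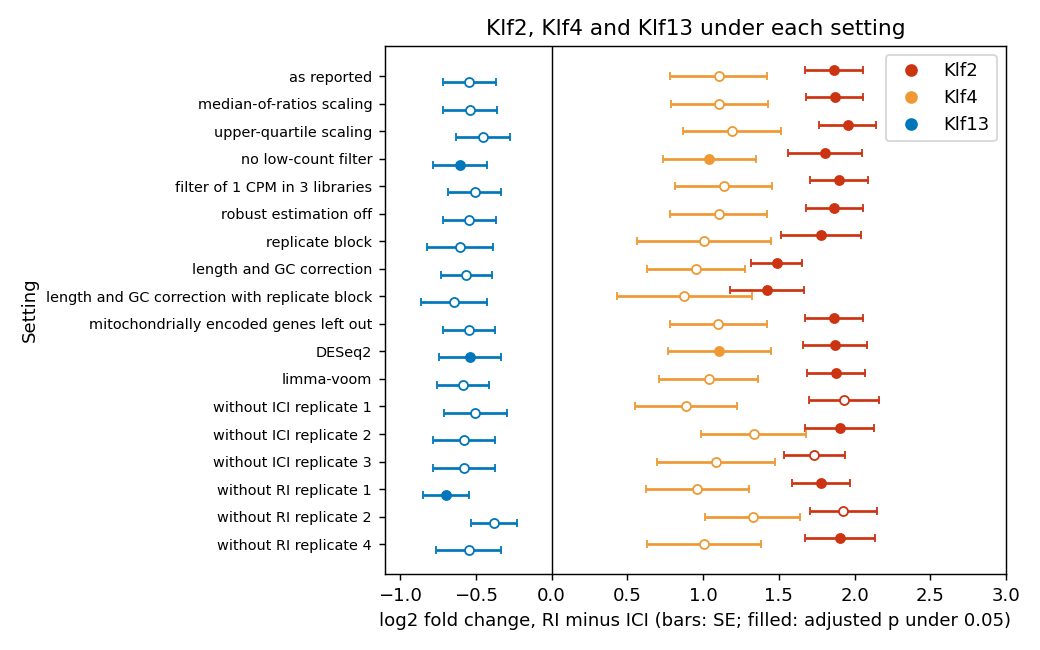
Log2 fold change (RI minus ICI) of Klf2, Klf4 and Klf13 with its SE under each setting, with points filled where the adjusted p was under 0.05. Klf2 stays between 1.42 and 1.95 and loses its call in 3 of the fits that leave out 1 library, while Klf4 and Klf13 are called in 2 and 3 of the 17 alternatives.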

How the data were processed

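Bulk RNA sequencing of 6 B16 tumours was used, 3 per group, grouped by the sample titles. The values are gene counts as deposited by the authors, whole numbers with no normalization. The submitters' processing notes name HISAT2 for alignment and both GRCm38 and mm10 as builds. No source used here states the counting tool, annotation release, strand setting or tool versions. Genes were filtered with filterByExpr (16924 of 34665 kept), scaled by TMM and tested with the robust quasi-likelihood test of edgeR 4.0.16 in R 4.3.3, with Benjamini-Hochberg adjustment over all tested genes and a call at an adjusted p under 0.05. Levels are TMM-scaled CPM, and SE is the log2 fold change over the root of F. The library totals were 22543721 to 45624013 counts.

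The members and lists were chosen with earlier results of these data known. Named genes were all members, up to 4 other Klf and Sp genes, up to 3 called genes of each further list or its most abundant gene, and the 5 genes most like Klf2; some of the genes so taken are left undescribed. Genes outside the rule were chosen after their values were seen. Among them were Mapk7, Map3k3, Mef2a, Mef2c, Mef2d, Sin3a, Ctbp1, Tgfb1, Tgfb2, Tgfb3, Edn1 and Vcam1 (for their roles). Some genes of the lists are not reported here, and the counts of 2 lists were left out with them. Positions, lengths and GC came from GENCODE M21 on GRCm38 (33858 identifiers found; longest transcript), exon overlaps from the same file and near-identical stretches (95% over 200 bases) from blastn 2.17.0; besides antisense transcripts, no member had a near-identical copy. Alternatives were other scalings and filters, DESeq2 1.42.0, limma-voom (limma 3.58.1), robust estimation off, a replicate block, a per-library spline correction for length and GC content, removal of mitochondrially encoded genes, a threshold of 0.1 and leaving out each library.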

Additional observations from a re-analysis of the deposited data

How the results depend on the processing

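Of the 169 recomputed log2 fold changes of the 10 members, 159 kept their direction and side of the threshold, 5 gained a call, 3 lost it and 2 changed sign. The 3 lost calls were those of Klf2 without ICI replicate 1, ICI replicate 3 or RI replicate 2. Klf2 kept its call in the other fits that left out 1 library (adjusted p = 0.0111 to 0.0466, edgeR). The log2 fold change of Klf7 was 0.0061 with the length and GC correction and that of Klf11 was -0.0285 with the replicate block; neither gene was called, and the cause was not tested. Against 1553 called genes in all, there were 2628 with no low-count filter, 3449 with DESeq2, 3635 at an adjusted p under 0.1, 619 with the length and GC correction, and 0 to 3109 when 1 library was left out. Upper-quartile scaling gave 1046 higher and 497 lower, against 754 and 799. Against 1 called member, 3 were called with no filter, with DESeq2 and at an adjusted p under 0.1, and 0 to 2 without 1 library; Klf5 was not tested under the filter of 1 CPM in 3 libraries. Against 2 other Klf and Sp genes, 1 was called with median-of-ratios scaling, the stricter filter, robust estimation off or limma-voom, 0 with upper-quartile scaling or the length and GC correction, and 0 to 3 without 1 library. Against 16 genes of the pathway lists, 26 were called with DESeq2, 4 with the length and GC correction and 0 to 21 without 1 library.

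The replicate numbers 1 and 2 occur in both groups, but the labels do not say that they pair the tumours. Deviations from the group means correlated across genes at 0.353 for replicate 1 and 0.0909 for replicate 2. ICI replicate 3 and RI replicate 4 have no library of the same number in the other group. With the block they therefore add nothing to the group difference, which comes from replicates 1 and 2 alone. With the replicate block 645 genes, 1 member (Klf2, log2 fold change 1.78), 0 other Klf and Sp genes and 10 pathway genes were called. With the block and the length and GC correction together the counts were 377, 1, 0 and 4. At 8 to 42 counts per library, depth limits what can be said of Klf5.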
